A study of Mus musculus with 12 samples.

Results

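The 9 genes described here, Tmem179, Nptx2, Tmem87a, Fam163a, Stk35, Cpt1c, Rem2, Zcchc12 and Tmem35a, stood higher on average in mouse pancreatic islets that lacked the protease BACE2. They were picked from these same arrays for that reason, by higher levels in the 6 arrays without BACE2 or in arrays with the human amyloid transgene and no BACE2. Their levels with and without BACE2 are therefore a description and carry no test. They are 9 of 17097 genes that had a probe set (a group of probes read as 1 value) with a single gene symbol, and 11 probe sets of 45141 carry their names. All 9 passed the filter on low values, which kept 12825 genes.

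Islets came from mice 12 weeks old on standard chow, in 4 groups of 3 arrays each: wild type (WT), carriers of a human islet amyloid polypeptide transgene (hIAPP), mice without BACE2 (BACE2-KO), and carriers of the transgene that also lacked BACE2 (hIAPP/BACE2-KO). The labels give the strain B6;129P2-Bace2tm1Bdes/J for every group, wild type included. Which promoter drives the transgene is not given in the sources used, nor is it stated whether an array held islets of 1 mouse or of several, so p-values measure the spread between arrays, which may be technical. Values are log2 levels, so that a difference of 1 is a doubling, and n is 3 arrays in every group mean ± SD.

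Beta cells are electrically excitable, and islet endocrine cells share with neurons much of their machinery for excitation and secretion. BACE2 is a membrane-bound aspartyl protease, found in beta cells, that sheds the outer parts of membrane proteins, and hIAPP is the peptide that forms islet amyloid in people. Rem2 encodes a small GTPase of the RGK family, which lowers currents through voltage-gated calcium channels. Nptx2 encodes a secreted neuronal pentraxin that gathers AMPA receptors at synapses. Cpt1c is the neuronal member of the carnitine palmitoyltransferase family, and Tmem35a encodes NACHO, a chaperone for the assembly of nicotinic acetylcholine receptors. Zcchc12 encodes a zinc finger co-activator of BMP signalling, Stk35 a nuclear serine/threonine kinase and Tmem87a a membrane protein of the Golgi. Tmem179 encodes a membrane protein and Fam163a a protein described in neuroblastoma.

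The genes lie on 7 chromosomes of the RefSeq assembly GRCm38.p6: Fam163a on chromosome 1, Tmem87a and Stk35 on 2, Nptx2 on 5, Cpt1c on 7, Tmem179 on 12, Rem2 on 14, and Zcchc12 and Tmem35a on X. None lies on chromosome 16 with Bace2. RefSeq promoter sequences were at hand for 8 of the 9, all but Nptx2. The 250 bases before the annotated start are shown for the 4 of these genes with the largest difference between arrays without and with BACE2, since genes that stood higher together invite a look at what their promoters share. They are written 5′ to 3′ in the direction of the gene, and capitals mark matches to the motifs named after them.
Tmem179 (chr12:112511161-112511410, minus strand): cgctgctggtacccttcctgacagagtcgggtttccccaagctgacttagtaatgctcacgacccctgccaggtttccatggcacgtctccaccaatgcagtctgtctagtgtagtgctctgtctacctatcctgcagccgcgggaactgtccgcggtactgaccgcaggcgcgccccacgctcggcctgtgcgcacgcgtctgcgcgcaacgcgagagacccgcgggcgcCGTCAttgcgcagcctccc
Fam163a (chr1:156205027-156205276, minus strand): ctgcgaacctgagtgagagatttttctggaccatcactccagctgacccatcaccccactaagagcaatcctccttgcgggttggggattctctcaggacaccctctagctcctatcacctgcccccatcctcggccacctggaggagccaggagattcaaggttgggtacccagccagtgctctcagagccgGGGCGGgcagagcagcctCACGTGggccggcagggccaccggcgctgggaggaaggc
Tmem87a (chr2:120404117-120404366, minus strand): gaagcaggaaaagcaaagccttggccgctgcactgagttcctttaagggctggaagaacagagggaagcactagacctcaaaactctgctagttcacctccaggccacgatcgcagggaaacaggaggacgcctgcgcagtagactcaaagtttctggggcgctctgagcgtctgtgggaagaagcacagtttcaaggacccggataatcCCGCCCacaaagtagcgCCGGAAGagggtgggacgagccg
Zcchc12 (chrX:36195654-36195903, plus strand): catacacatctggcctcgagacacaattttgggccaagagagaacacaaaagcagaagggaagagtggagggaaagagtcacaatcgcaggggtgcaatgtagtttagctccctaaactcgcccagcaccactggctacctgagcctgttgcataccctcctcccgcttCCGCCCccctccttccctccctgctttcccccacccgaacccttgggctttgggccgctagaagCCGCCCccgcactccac

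The motifs were 5 in number and were searched on both strands of the same 250 bases. The GC box GGGCGG was found before Fam163a, Tmem87a, Zcchc12, Cpt1c and Rem2, which is 5 of 8 promoters, against 32.7% of all 32851 promoters in the table. It stood at 2 places before Zcchc12. The ETS motif CCGGAAG was found before Tmem87a (6.91% of all promoters), the cAMP response element core TGACG before Tmem179 (17.8%), and the E-box CACGTG, which reads the same on both strands, before Fam163a (6.02%). The left part of the RE1 element of neuronal genes, TTCAGCACC, was found in 0 of 8, and in 0.301% of all promoters. No 2 of these matches overlapped, and GC content ran from 44.0% before Cpt1c to 64.4% before Tmem179, with a median of 52.4% over all promoters. A match is a run of letters and not a measured site.

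The targeted gene does not check the labels here. The level of Bace2 was 11.09 ± 0.16 for WT, 11 ± 0.10 for hIAPP, 10.94 ± 0.08 for BACE2-KO and 10.85 ± 0.17 for hIAPP/BACE2-KO, and the sources used do not say if its probes fall inside the deletion. Every direction below thus rests on the labels. The islet label was read against markers: the 7 beta cell markers on the array had a mean level between 10.66 and 11.43 in every array. The 8 acinar markers, of exocrine cells, had one between 8.92 and 11.27, so these levels do not check how pure the islets were. In whole islets, more cells of a type and more RNA per cell cannot be told apart.

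With BACE2 loss averaged over both transgene states, the differences of the 9 genes ran from 0.58 to 2.10, with a median of 0.90, against a median of 0.02 over all genes tested. All 9 were past the threshold of an adjusted p under 0.05 in limma's moderated test, where 0.413% of the 12825 genes were called higher. That count is fixed by how the genes were picked. For 7 of the 9, all 6 arrays without BACE2 stood above all 6 arrays with it, which held for 0.717% of genes, and Nptx2 and Tmem35a were the exceptions.

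Tmem179 had the largest difference. It read 4.77, 4.8 and 5.15 in the WT arrays and 3.9, 5.26 and 5.13 in the hIAPP arrays. It read 7.95, 6.26 and 6.81 in BACE2-KO and 6.28, 7.58 and 6.72 in hIAPP/BACE2-KO arrays. The lowest array without BACE2 lay 1 log2 unit above the highest with it, although the arrays of a genotype differed widely (pooled SD 0.67). The difference was 2.10 (SE 0.45) both for BACE2-KO minus WT and for hIAPP/BACE2-KO minus hIAPP, a 4.29-fold and a 4.28-fold higher level.

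Nptx2, the pentraxin gene, read 4.21, 5.65 and 6.19 in WT and 4.89, 5.61 and 4.89 in hIAPP arrays. It read 7.62, 7 and 6.11 in BACE2-KO and 7.03, 6.36 and 6.82 in hIAPP/BACE2-KO arrays. WT replicate 3 lay above BACE2-KO replicate 3, so these groups overlapped. The difference was 1.56 (SE 0.46) without the transgene, or 0.99 without WT replicate 1, and 1.61 with it. The other Nptx2 probe set was dimmer, with group means of 3.64 for WT, 3.60 for hIAPP, 3.97 for BACE2-KO and 4.19 for hIAPP/BACE2-KO. Its differences were smaller, at 0.33 and 0.59. These means are close to 3.43, the level of the filter, below which expression is poorly resolved.

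Fam163a read 4.86, 5.02 and 5.91 in WT and 4.3, 4.86 and 4.9 in hIAPP arrays, against 6.5, 6.49 and 6.29 in BACE2-KO and 6.77, 5.99 and 6.46 in hIAPP/BACE2-KO arrays. WT replicate 3 was the highest of the arrays with BACE2, 0.08 below the lowest array without it. The differences were 1.16 (SE 0.27) without and 1.72 (SE 0.27) with the transgene.

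Tmem87a, the Golgi protein gene, was nearly constant in WT, at 7.71, 7.49 and 7.54, and in BACE2-KO arrays, at 8.38, 8.38 and 8.34. The hIAPP arrays were spread over 7.83, 6.66 and 5.84, whereas hIAPP/BACE2-KO arrays read 8.74, 8.4 and 8.32. Replicate 1 of the hIAPP group thus stood above every WT array and the other two stood below them all. The difference was 0.79 (SE 0.34) without the transgene and 1.71 (SE 0.34) with it, and the latter ran from 1.24 to 2.24 when hIAPP replicate 3 or replicate 1 was left out.

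Stk35, the kinase gene, read 6.59, 7.06 and 6.88 in WT and 6.26, 6.74 and 6.27 in hIAPP arrays. It read 7.45, 7.61 and 7.39 in BACE2-KO and 7.4, 7.49 and 7.54 in hIAPP/BACE2-KO arrays, so both groups without BACE2 had the same mean of 7.48. The differences were 0.64 (SE 0.15) and 1.05 (SE 0.15). On its other probe set, which was dimmer, the differences were 0.19 and 0.61, and the highest WT array (4.87) lay above the lowest BACE2-KO array (4.78).

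Zcchc12, the BMP co-activator gene, read 7.35, 7.92 and 7.87 in WT and 7.89, 7.9 and 7.9 in hIAPP arrays. It read 8.68, 8.92 and 8.69 in BACE2-KO and 8.37, 8.89 and 8.7 in hIAPP/BACE2-KO arrays. No array without BACE2 fell among those with it. The differences were 1.05 (SE 0.16) and 0.76 (SE 0.16).

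Cpt1c, the neuronal carnitine palmitoyltransferase gene, read 6.72, 6.5 and 6.56 in WT and 5.94, 6.27 and 6.59 in hIAPP arrays. It read 6.89, 6.99 and 6.87 in BACE2-KO and 7.07, 7.22 and 7.29 in hIAPP/BACE2-KO arrays. The 4 genotypes stood in the order hIAPP, WT, BACE2-KO, hIAPP/BACE2-KO, in which hIAPP and WT arrays overlapped and the others did not. The differences were 0.32 (SE 0.15) without and 0.93 (SE 0.15) with the transgene.

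Rem2, the calcium channel inhibitor gene, read 5.66, 5.83 and 5.89 in WT and 6.36, 6.01 and 6.27 in hIAPP arrays. It read 6.62, 6.53 and 6.41 in BACE2-KO and 6.67, 6.49 and 6.78 in hIAPP/BACE2-KO arrays. Here the order was WT, hIAPP, BACE2-KO, hIAPP/BACE2-KO, and BACE2-KO overlapped hIAPP/BACE2-KO. The highest hIAPP array lay 0.05 below the lowest array without BACE2. The differences were 0.73 (SE 0.14) and 0.43 (SE 0.14).

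Tmem35a, the nicotinic receptor chaperone gene, went against a rise averaged over the transgene. It read 3.63, 3.4 and 3.38 in WT, 3.32, 3.45 and 3.5 in hIAPP and 4.44, 4.21 and 4.82 in BACE2-KO arrays, but 3.8, 3.35 and 3.65 in hIAPP/BACE2-KO arrays. Only the BACE2-KO arrays stood apart from all others, and hIAPP/BACE2-KO overlapped WT and hIAPP. The difference was 1.02 (SE 0.16) without the transgene and 0.18 (SE 0.16) with it, and the latter was 0.08 when replicate 1 of the hIAPP/BACE2-KO group was left out and 0.30 when replicate 2 was. The WT, hIAPP and hIAPP/BACE2-KO groups lay near the filter level, so the size of the difference is not resolved.

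**Figure D1:**
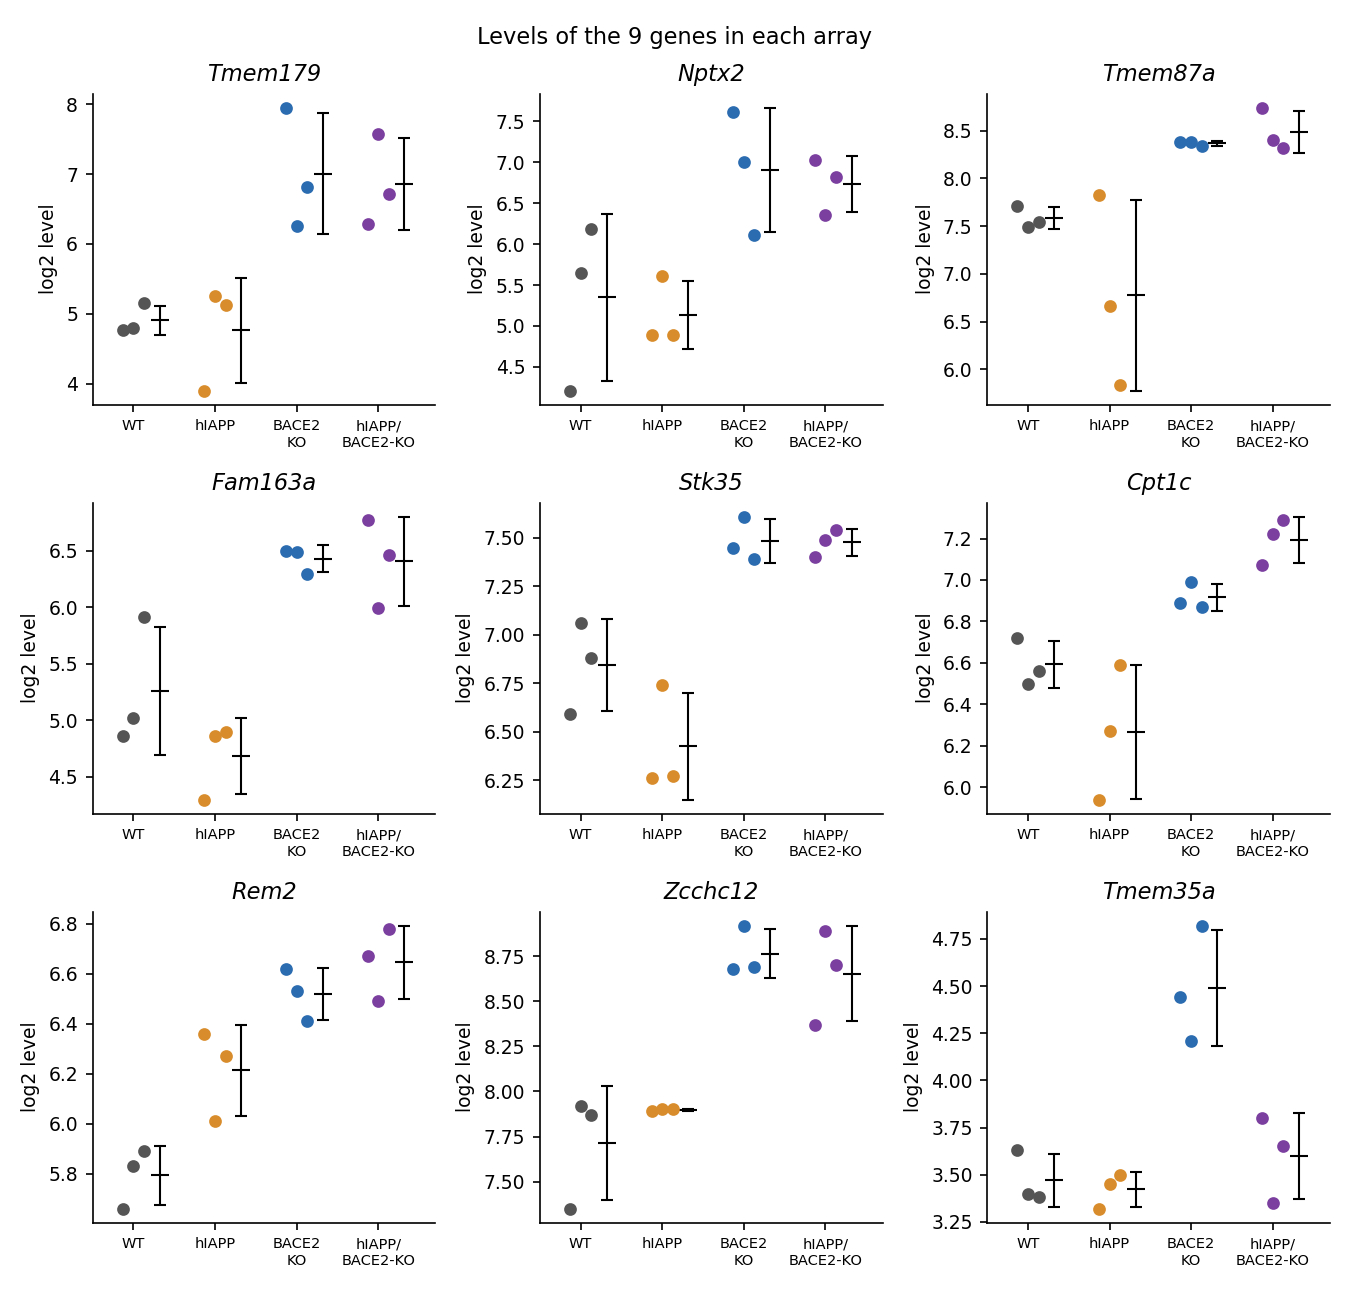
Log2 level of each gene (vertical axis, own scale per panel) in the 12 arrays by genotype; points are arrays, and the bar beside them is the mean ± SD of 3 arrays. Tmem35a stands between 4.21 and 4.82 in BACE2-KO arrays and at 3.8 or lower elsewhere, whereas Stk35 and Zcchc12 are higher in both groups without BACE2.

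The comparison of BACE2-KO with WT and that of hIAPP/BACE2-KO with hIAPP share no array. The first had a median of 1.02 over the 9 genes, with 2 called higher (Zcchc12 and Tmem35a) where 0.0702% of all genes were. The second had a median of 1.05, with 3 called higher (Fam163a, Stk35 and Cpt1c) where 0.078% of all genes were. All 3 BACE2-KO arrays stood above all WT arrays for 8 of the 9 genes, against 6.59% of all genes, and all hIAPP/BACE2-KO arrays above all hIAPP arrays for 8, against 6.56%. The exceptions were Nptx2 and Tmem35a, respectively. These counts follow from the choice of the genes. In hIAPP/BACE2-KO minus WT, which shares arrays with both, the 9 genes had a median of 0.91. Rem2 (0.85) and Zcchc12 (0.94) were called higher there, where 0.0702% of all genes were, and this too follows from the choice. The shares called in either direction were 0.125% in the first comparison, 0.101% in the second and 0.133% in hIAPP/BACE2-KO minus WT.

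Whether the size of the difference depended on the transgene was not tested for genes chosen this way, and the values are given as a description. The difference with the transgene minus that without was 0 (SE 0.63) for Tmem179, 0.05 (SE 0.65) for Nptx2, -0.29 for both Rem2 (SE 0.19) and Zcchc12 (SE 0.22), and 0.56 (SE 0.39) for Fam163a. It was 0.41 (SE 0.22) for Stk35, 0.60 (SE 0.21) for Cpt1c, 0.92 (SE 0.49) for Tmem87a and -0.84 (SE 0.23) for Tmem35a. Single arrays moved several of these values: Fam163a had 0.23 without WT replicate 3, Tmem87a had 0.46 without hIAPP replicate 3 and 1.45 without hIAPP replicate 1, Zcchc12 had -0.11 without WT replicate 1, and Tmem179 ran from -0.43 (without hIAPP replicate 1) to 0.47 (without BACE2-KO replicate 1) and Nptx2 from -0.37 (without WT replicate 3) to 0.62 (without WT replicate 1). Over all genes tested, 0.0078% were called for this quantity, a share that is no test of the 9. For Stk35, Fam163a and Tmem87a, the levels without BACE2 were close in both transgene states, and the hIAPP mean lay 0.42 to 0.80 below the WT mean.

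**Figure D2:**
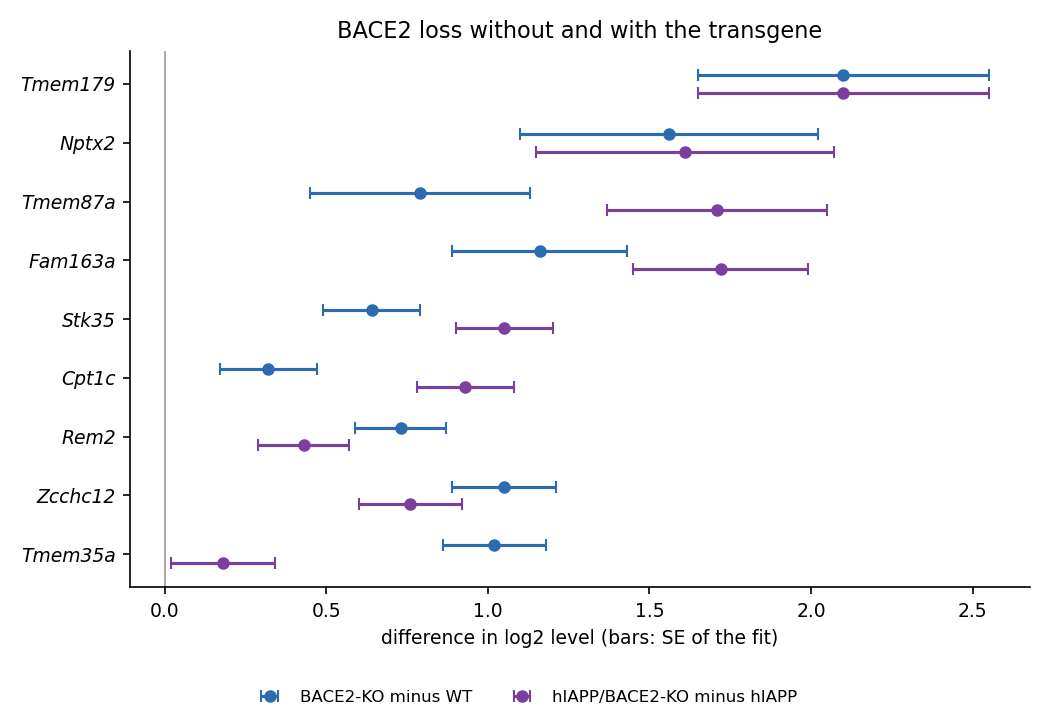
Difference in log2 level with BACE2 loss (horizontal axis) for each gene, without the transgene (blue) and with it (purple); bars are the SE of the fit to 12 arrays. Tmem179 stands at 2.10 in both, and Tmem35a at 1.02 without and 0.18 with the transgene.

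The transgene in islets that have BACE2 was the comparison the rule did not name, and it was tested. It is not fully free of the choice, because genes picked for high hIAPP/BACE2-KO against hIAPP arrays tend to have low hIAPP values. None of the 9 genes passed in hIAPP minus WT (limma, smallest adjusted p = 0.95 among them), where 0.0156% of all genes were called, and 3 of the 9 had an unadjusted p under 0.05, against 4.52% of all genes. Of the 9, 7 were lower and 2 higher, with a median of -0.22 against -0.03 over all genes.

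Rem2 differed by 0.42 (95% interval 0.13 to 0.71, adjusted p = 0.95) and was the only one of the 9 whose hIAPP and WT arrays did not overlap, which was so for 9.16% of all genes. Stk35 differed by -0.42 (95% interval -0.75 to -0.09, adjusted p = 0.95). Tmem87a differed by -0.80 (95% interval -1.55 to -0.06, adjusted p = 0.95), or -0.34 without hIAPP replicate 3 and -1.33 without replicate 1. Fam163a differed by -0.58 (95% interval -1.17 to 0.02) and Cpt1c by -0.33 (95% interval -0.65 to 0, both with an adjusted p of 0.95 in limma). Without WT replicate 3 the value of Fam163a was -0.25, and without hIAPP replicate 1 those of Fam163a and Cpt1c were -0.38 and -0.16. For Tmem179 (-0.14, 95% interval -1.12 to 0.83) and Nptx2 (-0.22, 95% interval -1.22 to 0.78) the intervals leave room for changes of either sign, and both turned sign when an array was left out. Zcchc12 (0.18, 95% interval -0.15 to 0.52) and Tmem35a (-0.05, 95% interval -0.40 to 0.31) had narrower ones, and Zcchc12 had 0 without WT replicate 1 and 0.29 without WT replicate 2. In the same comparison the 7 beta cell markers were all lower (median -0.35, 3 with an unadjusted p under 0.05) and 8 of 9 macrophage markers higher (median 0.73, 4 with an unadjusted p under 0.05), with 0 called in either list. Their part in the values of the 9 genes was not tested.

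In islets without BACE2, where the hIAPP/BACE2-KO arrays are among those the genes were picked on, the transgene difference is given as a value only. Tmem35a was 0.89 lower with the transgene (SE 0.16), and its 3 arrays in each group did not overlap. Cpt1c was 0.28 higher (SE 0.15), again with no overlap, which was so for 9.68% of all genes in either direction. The other seven lay between -0.17 and 0.13, and with an array left out Tmem179 ran from -0.52 (without BACE2-KO replicate 2) to 0.33 (without BACE2-KO replicate 1) and Nptx2 from -0.57 (without BACE2-KO replicate 3) to 0.18 (without BACE2-KO replicate 1). Tmem87a, Fam163a, Stk35 and Zcchc12 also took either sign as single arrays were left out, between -0.23 and 0.20. Of all genes tested, 0 (0%) were called in this comparison by limma (smallest adjusted p = 0.962), while 569 had an unadjusted p under 0.05.

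**Figure D3:**
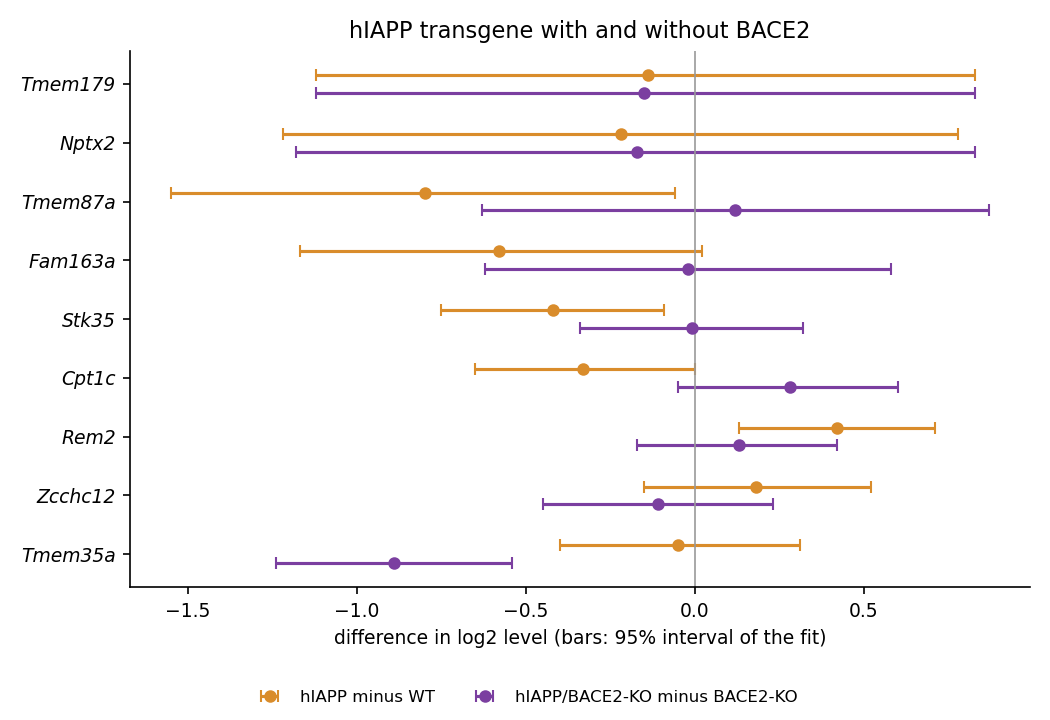
Difference in log2 level with the hIAPP transgene (horizontal axis) for each gene, in islets with BACE2 (orange) and without it (purple); bars are 95% intervals of the fit. Tmem35a lies at -0.05 with BACE2 and at -0.89 without it, and Rem2 at 0.42 and 0.13.

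The arrays of a genotype were also compared with each other. The spread about the genotype means was largest in Nptx2 (pooled SD 0.69) and Tmem179 (0.67) and smallest in Rem2 (0.14) and Cpt1c (0.18). In BACE2-KO replicate 1, Tmem179 lay 0.94 and Nptx2 0.71 above their means, and in hIAPP/BACE2-KO replicate 2 Tmem179 lay 0.72 above and Nptx2 0.38 below. The hIAPP replicate 1 array was the lowest of its group, or tied for lowest, for 7 of the 9 genes, and the exceptions, Tmem87a and Rem2, were highest there. Nptx2 read 4.89 in replicates 1 and 3 alike. Stk35 (6.26 against 6.27 in replicate 3) and Zcchc12 (7.89 against 7.9 in replicates 2 and 3) were barely lower. WT replicate 1 and BACE2-KO replicate 3 were each the lowest of their group for 6 genes, and in the latter 8 of the 9 lay below the group mean. In the other arrays between 1 and 4 genes were lowest.

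**Figure D4:**
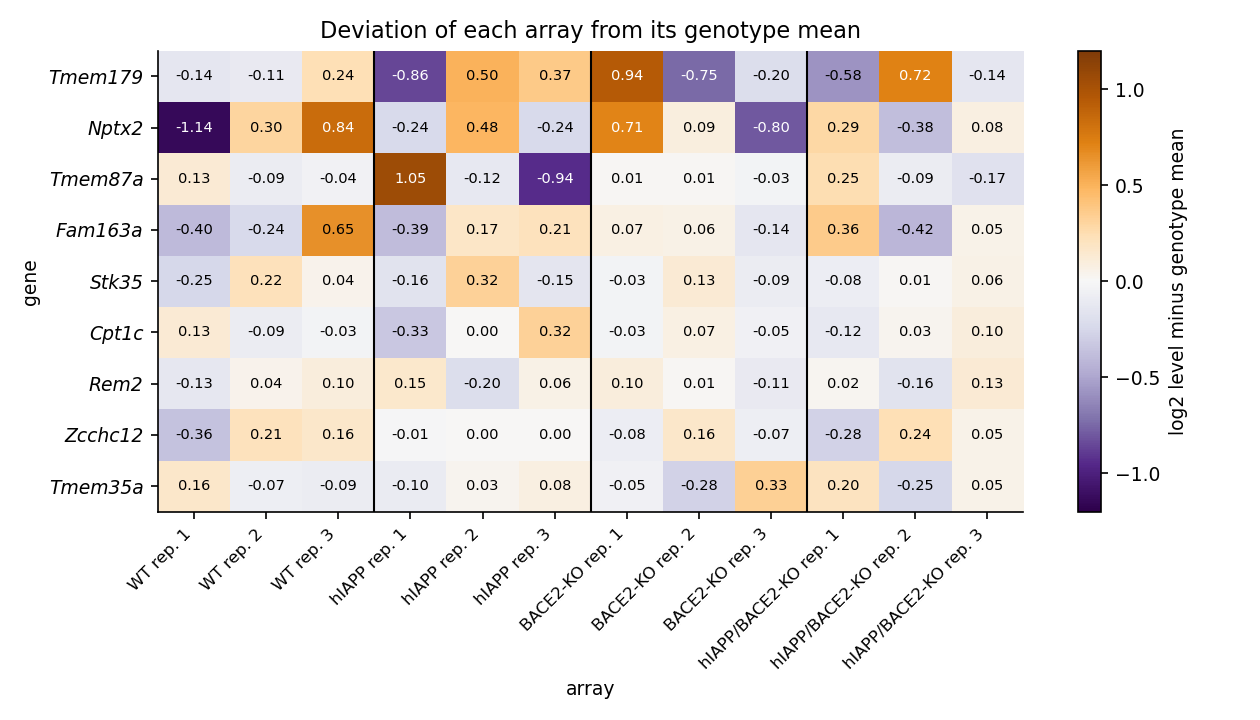
Log2 level of each gene (rows) in each array (columns) minus the mean of its genotype, printed in the cells and coloured from purple (below) to orange (above). Tmem87a in the hIAPP arrays runs from 1.05 above to 0.94 below the genotype mean, and its BACE2-KO arrays lie within 0.03 of theirs.

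The nearest tested gene on each side of each of the 9 was then read, a step added after the members' values had been seen. Of these 18 neighbours, 0 were called by limma with BACE2 loss averaged, where 0.92% of all genes were called in either direction, and 2 had an unadjusted p under 0.05. Their differences ran from -0.18 to 0.25 with a median of 0. The highest were Tmem130 beside Nptx2 (0.25, adjusted p = 0.423) and Inf2 beside Tmem179 (0.20, adjusted p = 0.415). Stk35os1, beside Stk35, differed by 0 (SE 0.13).

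**Figure D5:**
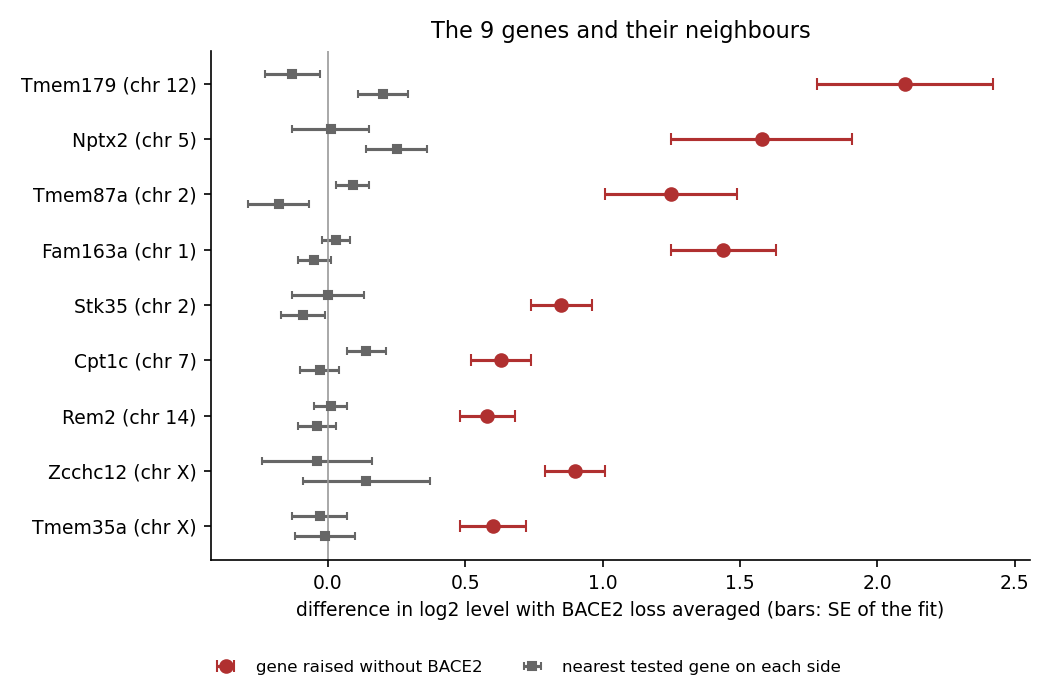
Difference in log2 level with BACE2 loss averaged over the transgene (horizontal axis) for each of the 9 genes (red circles) and for the nearest tested gene on each side of it (grey squares); bars are the SE of the fit. The neighbours lie between -0.18 and 0.25, and the 9 genes at 0.58 or above.

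Genes related to the 9 were read from fixed lists that hold none of them. With BACE2 loss averaged, 55.7% of all genes tested were higher and 11.4% had an unadjusted p under 0.05. Of 10 tested paralogues, 0 were called with BACE2 loss averaged, in either direction, and 0 had an unadjusted p under 0.05. They had a median of 0.02, as had all genes. Cpt1a, the liver-type carnitine palmitoyltransferase gene, differed by -0.05 (95% interval -0.29 to 0.19), the muscle-type gene Cpt1b by 0.23 (0 to 0.45) and Nptx1, the other secreted neuronal pentraxin gene, by 0.17 (-0.17 to 0.50). Fam163b differed by -0.14, Tmem179b by 0.13, Tmem87b by 0.05, the Stk35 relative Pdik1l by 0.02, Zcchc18 by 0.03, Tmem35b by -0.07 and the RGK gene Gem by -0.09.

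Lists of genes that act beside Rem2, Nptx2, Cpt1c, Tmem35a and Zcchc12 were read too, and none was read for the other four. Of 9 tested calcium channel and RGK genes, 0 were called and 3 were higher, with a median of -0.08. Of 12 pentraxin and AMPA receptor genes, 0 were called and 5 were higher. Gria2, an AMPA receptor subunit gene, had the smallest p of that list, at 0.45 (SE 0.11, adjusted p = 0.0957), with levels of 6.72 ± 0.24 for WT, 6.72 ± 0.25 for hIAPP, 7.33 ± 0.08 for BACE2-KO and 7.01 ± 0.18 for hIAPP/BACE2-KO. Cnih2, the other gene of that list with an unadjusted p under 0.05, was lower (-0.25, SE 0.09, adjusted p = 0.294 in limma). Of 13 genes of the carnitine shuttle and fatty acid oxidation, 0 were called and 7 were higher (median 0.03). Of 17 nicotinic receptor and chaperone genes, 6 passed the filter, 0 were called and 2 were higher. Of 17 tested BMP genes, 0 were called and 7 were higher, and the ligand gene Bmp6 differed by 0.37 (SE 0.09, adjusted p = 0.0864). Bmpr1a, the other BMP gene with an unadjusted p under 0.05, was lower (-0.26, SE 0.11, adjusted p = 0.406 in limma). Unadjusted p-values under 0.05 numbered 1, 2, 0, 0 and 2 in these 5 lists, in that order.

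Genes of neurons and endocrine cells gave 1 call. Of 28 tested, 18 were higher and 10 lower, with a median of 0.07, and 10 had an unadjusted p under 0.05. The gene called was Elavl4, which encodes a neuronal RNA-binding protein, and it fell by 0.46 (SE 0.07, adjusted p = 0.0111), from 8.33 ± 0.11 in WT and 8.43 ± 0.16 in hIAPP to 7.90 ± 0.11 for BACE2-KO and 7.93 ± 0.05 for hIAPP/BACE2-KO. The next smallest p-values were those of Cplx2 (-0.23), Vgf (0.70), Syt7 (-0.18) and Stmn3 (0.27), with an adjusted p from 0.312 to 0.379 in limma. Of 15 activity-regulated genes, 12 were higher, with a median of 0.14, 0 were called and 4 had an unadjusted p under 0.05. Among them the nuclear receptor gene Nr4a1 differed by 0.42 (SE 0.11, adjusted p = 0.116) and the kinase gene Sik1 by 0.37 (SE 0.11, adjusted p = 0.191).

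Markers of other cells were read beside these results. Of the 5 markers of delta and other endocrine cells, Ghrl, the ghrelin gene, fell by 2.16 (SE 0.26, adjusted p = 0.00208). Its mean was 5.72 for WT and 5.03 for hIAPP, but 3.12 for BACE2-KO and 3.31 for hIAPP/BACE2-KO, under the filter level, so the size of this difference is not resolved. The other four, Sst, Hhex, Ppy and Pyy, differed by -0.10 to 0. The mean level of these 5, Ghrl included, ran from 10.25 to 10.86 in arrays with BACE2 and from 9.76 to 10.09 in those without. This gap lies mostly in Ghrl, since the other markers of the list differed little. The part of these 5 in the levels of the 9 genes was not tested. Of 7 Schwann and glial cell markers on the array, 3 (S100b, Foxd3 and Sox2) were under the filter level, and the mean of the 7 ran from 3.80 to 4.03 with BACE2 and from 3.69 to 4.08 without. The acinar markers spanned 8.92 to 11.27 with BACE2 and 9.49 to 10.96 without. The 3 alpha cell markers on the array were all higher with BACE2 loss averaged (median 0.13, 2 with an unadjusted p under 0.05, 0 called), and their mean ran from 10.46 to 10.80 with BACE2 and from 10.73 to 11.02 without. In BACE2-KO minus WT all 3 were higher (median 0.31, 2 with an unadjusted p under 0.05). In hIAPP/BACE2-KO minus hIAPP 2 were higher and 1 lower (median 0.01, 0 with an unadjusted p under 0.05). In the other lists 0 markers were called with BACE2 loss averaged: medians were 0.04 for beta cell, 0.23 for duct, -0.27 for macrophage, 0.25 for stellate cell and fibroblast, -0.04 for acinar, -0.11 for Schwann and glial and -0.02 for endothelial markers. Unadjusted p-values under 0.05 numbered 1, 1, 2, 0, 0, 1 and 0, in that order. The Schwann and glial marker among them was Gfra3, which was higher (0.44), whereas Sox10, Gfap and Fabp7 differed by -0.13, -0.13 and -0.10. Of 4 tested duct markers 3 were higher, with Krt19 at 1.22 (SE 0.42, adjusted p = 0.272 in limma). The duct median was -0.04 in BACE2-KO minus WT and 0.54 in hIAPP/BACE2-KO minus hIAPP, with Krt19 at 1.05 and 1.38. In the same order, stellate cell and fibroblast medians were 0.03 and 0.38. Medians of beta cell (-0.06 and 0.10), acinar (0.10 and -0.17) and endothelial markers (-0.07 and 0.06) changed sign. Of 9 macrophage markers 6 were lower, with C1qa at -0.34 (adjusted p = 0.196) and Lyz2 at -0.54 (adjusted p = 0.406). The 2 BACE2-loss comparisons differed here. In BACE2-KO minus WT the macrophage median was 0, with 4 higher and 5 lower, C1qa at -0.24 and Lyz2 at 0.26. In hIAPP/BACE2-KO minus hIAPP it was -0.33, with 1 higher and 8 lower, C1qa at -0.45 and Lyz2 at -1.34.

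Likeness was measured as the mean absolute difference between centred levels over the 12 arrays, as a description of genes that in part vary with BACE2 as the members do. The pair of genes most like Tmem179 was Timmdc1 (0.44 log2 units) and Ppp1r3b (0.45), and that of Fam163a was Timmdc1 (0.30) and Star (0.32). Nptx2 was most like Ccnb1ip1 and Psat1 (both 0.45), and Tmem87a most like Pisd-ps3 (0.27) and Tceanc2 (0.31). Stk35 was most like Unkl (0.14) and Med8 (0.16), Cpt1c most like Pygb (0.14) and Top3a (0.15), and Rem2 most like Crip1 (0.12) and 6330415B21Rik (0.15). Zcchc12 was most like Dusp4 and Tent5a (both 0.16), and Tmem35a most like Nudt11 (0.16) and Sytl2 (0.20). For comparison, the levels of Tmem179 themselves departed from their mean by 1.05 on average and those of Rem2 by 0.30. Nptx2, whose own departure was 0.82, had the least close match relative to it.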

How the data were processed

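Islet RNA was measured on Affymetrix mouse arrays, 12 in all. The authors deposited log2 levels, 1 value for each probe set on each array, made with RMA and affy, per the submitters' processing notes; no versions or genome build are given in the sources used. RMA puts arrays on 1 scale, so a shift shared by most genes would not be seen. Array medians ran from 4.22 to 4.35, and no array copied another (at most 2.22% of values equal). Precision is limited by how many arrays there are.

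Gene symbols of probe sets came from the platform annotation (28898 with 1 symbol, 551 with several and left unnamed). Each gene was read from its probe set with the highest mean. Genes were left out if their mean lay below the 25th percentile (3.43). limma 3.58.1 in R 4.3.3 (lmFit with 4 group means over 12 arrays, contrasts, eBayes with a trend) gave differences, SE, 95% intervals and two-sided p-values, adjusted by Benjamini-Hochberg over 12825 genes and called under 0.05. The steps were tested on simulated data. Members and lists were chosen with earlier results of these data known. Names followed a rule: the 9 genes, their paralogues, called list genes, up to 4 others per list by smallest p, the 2 genes most like each, and Bace2. Promoters are RefSeq's (GRCm38.p6), and all 9 genes matched its table by Entrez number. Alternatives were filters, probe set choice, scaling, variance model, samples fitted, replicate block, array weights, an acinar covariate and each array left out. Plots used matplotlib 3.10.9.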

Additional observations from a re-analysis of the deposited data

How the results depend on the processing

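Over 22 settings, 12 of which left out 1 array, each averaged BACE2-loss difference of the 9 genes stayed positive (188 of 188 values), a direction that the choice of the genes fixes, and none of the 9 was called in hIAPP minus WT. The choice of probe set mattered: with the mean of its probe sets Stk35 had an averaged difference of 0.62 in place of 0.85, and Nptx2 1.02 in place of 1.58. In hIAPP minus WT, array weights turned Tmem179 to 0.08 and Tmem35a to 0, and with an array left out Tmem179 ran from -0.39 to 0.29, Nptx2 from -0.79 to 0.20 and Tmem35a from -0.09 to 0.03. Among genes at or above the 50th percentile, where fewer were tested, the median of the members kept in hIAPP/BACE2-KO minus hIAPP was 1.33, and with each array left out it ran from 0.97 to 1.21. The median of the difference between both BACE2-loss differences ran from -0.13 to 0.54 with an array left out, and was 0.54 without WT replicate 1. Elavl4 and Ghrl were called in all 21 and 20 settings that tested them.

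Counts of called genes were less stable. BACE2 loss averaged had 118, 205 with the replicate block and 46 to 108 with an array left out (46 without WT replicate 1 or 2, 63 without hIAPP replicate 2 or 3, 75 without hIAPP/BACE2-KO replicate 3). BACE2-KO minus WT had 16, and 6 at or above the 50th percentile, 36 with array weights, 9 with only those groups and 5 to 16 with an array left out. Here 8 arrays took the count to 10 or lower: WT replicates 1 (7) and 2 (8), hIAPP replicates 2 (9) and 3 (8), BACE2-KO replicates 1 (5), 2 (6) and 3 (9) and hIAPP/BACE2-KO replicate 3 (10). The comparison hIAPP/BACE2-KO minus hIAPP had 13, and 24 with median centring, 29 with the replicate block, 3 with only those groups and 4 to 17 with an array left out, namely 6 and 7 without hIAPP replicates 2 and 3, while leaving out replicate 1, 2 or 3 of hIAPP/BACE2-KO gave 5, 4 and 8. The comparison hIAPP/BACE2-KO minus WT had 17, and 7 at or above the 50th percentile, 11 without the variance trend, 27 with the replicate block, 34 with array weights, 4 with only those groups and 0 to 18 with an array left out (6 without WT replicate 1 or 2, 10 without WT replicate 3 or hIAPP replicate 3, 11 without BACE2-KO replicate 3, and 3, 0 and 4 when hIAPP/BACE2-KO lost replicate 1, 2 or 3). The comparison hIAPP minus WT had 2, but 1 at or above the 50th percentile and 1 to 3 with an array left out (1 without hIAPP replicate 2). The difference between both BACE2-loss differences had 1, but 0 at or above the 50th percentile and 1 to 2 with an array left out (2 without hIAPP replicate 3). Apart from fewer genes or arrays, the cause of these shifts was not tested.

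Groups share replicate numbers, but no label says these mark a litter or day. Across genes, deviations correlated at a median of 0.14 (-0.13 to 0.37) for same-numbered arrays and -0.07 (-0.44 to 0.3) for others. The main fit used no pairs, and a shared effect was not tested. The block left the averaged BACE2-loss median of the 9 genes at 0.90. Levels near 3.43 are not resolved, which limits Tmem35a, the dimmer Nptx2 probe set, Bmp6, Bmpr1a, Gfap, Fabp7, and Ghrl without BACE2.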
